A study of Mus musculus with 14 samples.

Results

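The genes described here carry the transforming growth factor β (TGF-β) signal from the cell surface to the nucleus or limit it, and they were measured by RNA-seq in spleen T cells of mice with chronic myeloid leukemia (CML). They are the receptors Tgfbr1, Tgfbr2 and Tgfbr3, the signal carriers Smad2, Smad3 and Smad4, and the feedback regulators Smad7, Smurf2, Pmepa1 and Tgif1. All 10 were picked by symbol from the 24091 genes in the table of read counts, and all 10 had enough reads to be tested. Samples of 200000 sorted T cells each came from 8 Mir142+/+BCR-ABL mice, which model chronic phase (CP CML), and from 6 Mir142−/−BCR-ABL mice, which model blast crisis (BC CML), with 1 library per mouse. All mice were 6 to 10 weeks old, of both sexes and on the CD45.2 C57Bl/6j background. Both groups carried SCLtTA/BCR-ABL, in which the SCL regulatory sequence drives the tetracycline transactivator in blood stem and progenitor cells, and BCR-ABL had been switched on for 3 weeks by tet withdrawal (tet-off). Mir142 was missing from every cell of the BC CML mice and not only from T cells, so the T cells of both groups came from leukemic animals that differed in genotype throughout.

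The deleted gene checked the labels. Mir142 reads numbered 302 to 650 per CP CML library, and every one of the 6 BC CML libraries had 0. Setting BC CML to a floor of 3 reads per library makes Mir142 at least 167.1-fold lower there. The libraries held 15703702 to 19914531 counted reads. All 12 T cell identity markers were detected, of which 6 were called higher and 2 lower in BC CML. Their summed normalized count (CPM, reads relative to library size) did not overlap, at 4421 to 5063 CPM in CP CML and 5463 to 5760 CPM in BC CML, with Cd8a the most abundant of them. The sample names hold a number after the genotype that is shared within each group and differs between the groups. The labels do not say what it stands for, and whatever it marks cannot be told apart from genotype.

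TGF-β binds the type II receptor TGFBR2, which recruits and phosphorylates the type I receptor TGFBR1. The co-receptor TGFBR3, also called betaglycan, presents the ligand. Activated TGFBR1 phosphorylates SMAD2 and SMAD3, which join SMAD4 and enter the nucleus. SMAD7 and the ubiquitin ligase SMURF2 turn the receptors off, PMEPA1 keeps SMAD2 and SMAD3 from the receptor, and TGIF1 represses SMAD-driven transcription. In T cells the pathway is known for restraining effector responses, for inducing regulatory T cells and for retaining memory cells in tissues.

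A microRNA recognizes its targets mainly through its seed, bases 2 to 8 from the 5′ end, and the deleted gene gives 2 mature strands. They are shown, with the seed in capitals, because the matches counted in these genes are defined by them. The RefSeq sequences lie on the plus strand of chromosome 11 of GRCm38.p6, from 87756903 to 87756925 for the 3p strand and from 87756867 to 87756887 for the 5p strand.

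mmu-miR-142a-3p: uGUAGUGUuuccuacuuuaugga

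mmu-miR-142a-5p: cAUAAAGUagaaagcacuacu

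The longest annotated 3′UTR of each gene (GENCODE vM21, the same genome build as the counts) was searched for 8-base matches (ACACTACA for 3p, ACTTTATA for 5p) and for 7-base matches (ACACTAC or CACTACA for 3p, ACTTTAT or CTTTATA for 5p, counted only outside an 8-base match). Tgfbr1 held the 8-base match of 3p at chromosome 4 from 47414874 to 47414881, near the end of a 3′UTR of 4154 bases, and 2 of the 7-base matches of 5p. Tgfbr2 held 1 of the 7-base matches of 5p on chromosome 9 from 116090072 to 116090078. Tgfbr3 held the 8-base match of 5p on chromosome 5 from 107107638 to 107107645 and a 7-base match of 3p. Smurf2 held 2 of the 7-base matches of 5p, and Smad2 held 1 match of 3p and 2 of 5p. No match was found in the 3′UTRs of Smad3, Smad4, Smad7, Pmepa1 or Tgif1. All matches in the receptors and in Smurf2 are printed on the transcript strand, with the matched bases in capitals to show which strand of the microRNA each one belongs to.

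Tgfbr1, 3p site: atttcatcctaACACTACAgtagaaaatgg

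Tgfbr1, first 5p site: ttcgagatctgCTTTATAgaaatccaggg

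Tgfbr1, second 5p site: atttgatatttCTTTATAtgtcaaggaga

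Tgfbr2, 5p site: ataacgtttgcACTTTATtaatgcctgtg

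Tgfbr3, 5p site: cattgccaaggACTTTATAaataatcttaa

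Tgfbr3, 3p site: tctgtgcaaggCACTACAgctattcacgt

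Smurf2, first 5p site: agtgccttttaACTTTATtacagtgactt

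Smurf2, second 5p site: gtaattagttcACTTTATgtaatattctc

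Among the 11503 tested genes with an annotated 3′UTR, 12.1% held a match of 3p and 23.5% a match of 5p, against 3 and 5 of these 10 genes. The 3′UTRs of the 10 genes were also longer, with a median of 3216.5 bases against 1186 bases over the tested genes, and longer sequence holds more matches. A match is a description of letters and not a measured binding site.

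In BC CML, 4 of the 10 genes were higher (Tgfbr1, Smad3, Smurf2 and Pmepa1), 5 were lower (Tgfbr2, Tgfbr3, Smad2, Smad7 and Tgif1), and Smad4 did not pass the test. The test was edgeR's quasi-likelihood test of BC CML against CP CML, with adjustment over all 12248 genes that passed a filter on low counts and an adjusted p-value below 0.05 as the threshold. It called 65.2% of all genes tested, 32.6% higher and 32.7% lower, and 9 of these 10. The median size of the log2 fold change, without its sign, was 0.56 over the 10 genes and 0.28 over all genes tested. The 10 genes were chosen with earlier results of these data known, so contrasts of them with all genes are descriptions only. Of the 5 genes with a seed match, Tgfbr1 and Smurf2 rose and Tgfbr2, Tgfbr3 and Smad2 fell. Of the 5 without one, Smad3 and Pmepa1 rose, Smad7 and Tgif1 fell, and Smad4 was not called. Levels below are normalized counts (CPM, reads relative to the size of the library after scaling by edgeR's TMM factors), errors of levels are SDs over mice, and errors of log2 fold changes are standard errors (SE).

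**Figure D1:**
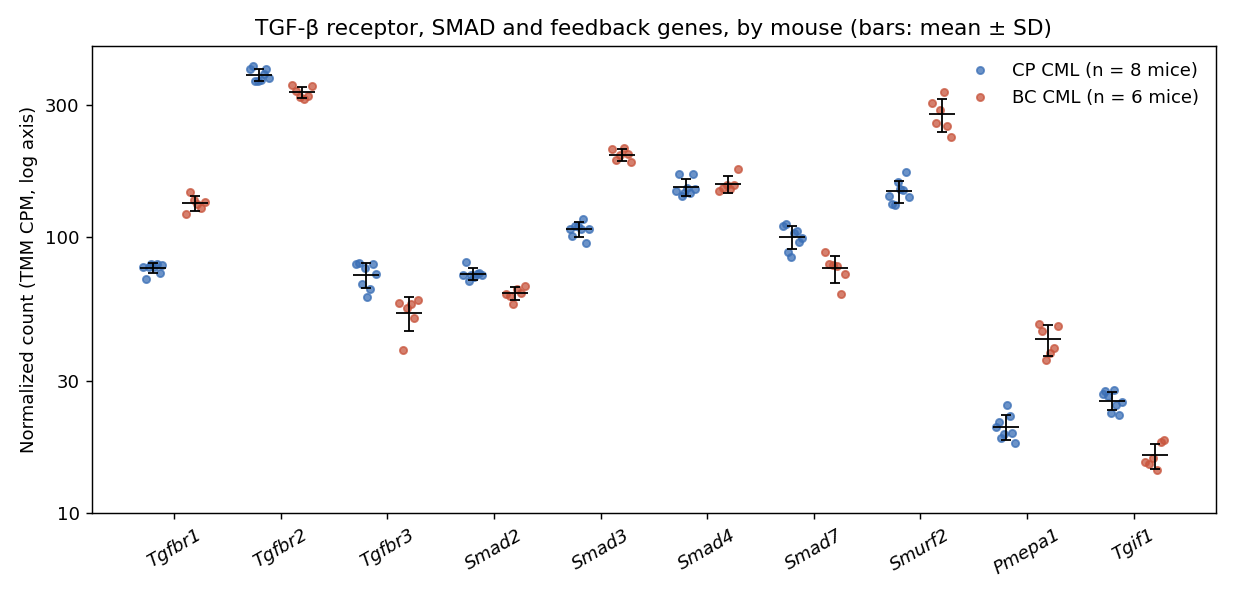
Normalized count of each gene (y axis, TMM CPM on a log scale) in each of the 8 CP CML and 6 BC CML mice, with bars at the mean ± SD. The BC CML points lie wholly above the CP CML points for Tgfbr1, Smad3, Smurf2 and Pmepa1, wholly below them for Tgfbr2, Tgfbr3, Smad2 and Tgif1, and overlap them for Smad4 and Smad7.

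Among the receptors, the type I subunit rose while the type II subunit and the co-receptor fell. Tgfbr1, on chromosome 4 (47353222 to 47414924, plus strand, mm10), ranged from 70.7 to 79.8 CPM in CP CML (median 78.0) and from 120.7 to 146.0 CPM in BC CML (median 132.6). The gap between the groups was wider than the whole range within either of them. The level was 1.72-fold higher in BC CML, with log2 fold change 0.78 ± 0.04 (SE, adjusted p = 3.8e-11).

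Tgfbr2, on chromosome 9 (116087695 to 116175363, minus strand), a span that leaves out part of its longest annotated 3′UTR, ranged from 367.6 to 415.5 CPM in CP CML (median 382.9) and from 315.9 to 354.5 CPM in BC CML (median 331.0). No BC CML mouse reached the lowest CP CML mouse, although the difference was small, with a log2 fold change of -0.21 ± 0.04 (SE, adjusted p = 0.00018). In spleen T cells of the same genotypes, the authors report the opposite direction, with higher Tgfbr2 by Q-RT-PCR and more of its protein by Western blot. The cause of this difference was not tested. Tgfbr3, on chromosome 5 (107106570 to 107289595, minus strand), ranged from 60.6 to 80.2 CPM in CP CML (median 75.3) and from 39.0 to 59.1 CPM in BC CML (median 56.4). The highest BC CML mouse lay just under the lowest CP CML mouse, and BC CML replicate 2 stood below the other BC CML mice. The log2 fold change of Tgfbr3 was -0.45 ± 0.09 (SE, adjusted p = 0.00030), and -0.38 ± 0.07 (SE, adjusted p = 0.000156) without that replicate.

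The 3 signal carriers each did something different: Smad3 rose 1.86-fold, Smad2 fell slightly and Smad4 was not called. Smad3, on chromosome 9 (63646767 to 63757994, minus strand), ranged from 94.9 to 116.7 CPM in CP CML (median 107.1) and from 186.5 to 209.9 CPM in BC CML (median 198.7). The groups were far apart against their spread. The log2 fold change was 0.90 ± 0.04 (SE, adjusted p = 8.9e-12), and by p-value Smad3 ranked 131 of all genes tested, ahead of the other genes described here.

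Smad2, the close relative of Smad3 on chromosome 18 (76241701 to 76311747, plus strand), ranged from 69.2 to 81.3 CPM in CP CML (median 73.0) and from 57.1 to 66.5 CPM in BC CML (median 62.7). Its log2 fold change was -0.23 ± 0.04 (SE, adjusted p = 9.1e-05). Smad4, the shared partner of both, on chromosome 18 (73639013 to 73703741, minus strand), ranged from 140.2 to 168.9 CPM in CP CML (median 148.1) and from 147.1 to 175.8 CPM in BC CML (median 152.4). The groups overlapped, with a log2 fold change of 0.03 ± 0.05 (SE, adjusted p = 0.57) whose sign turned when BC CML replicate 6 was left out (-0.0047).

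The feedback regulators split as well. Pmepa1, a membrane protein gene induced by TGF-β in many cell types, had the largest log2 fold change of the 10 genes. It lies on chromosome 2 (173224465 to 173276533, minus strand) and ranged from 17.9 to 24.6 CPM in CP CML (median 20.0) and from 35.8 to 48.6 CPM in BC CML (median 42.7). The level was 2.07-fold higher in BC CML, with log2 fold change 1.05 ± 0.08 (SE, adjusted p = 3.5e-09). Smurf2, on chromosome 11 (106820064 to 106920715, minus strand), ranged from 130.7 to 171.5 CPM in CP CML (median 144.3) and from 230.5 to 334.9 CPM in BC CML (median 273.0). It varied more among BC CML mice (278.2 ± 38.6 CPM, SD, n = 6) than among CP CML mice (146.2 ± 13.7 CPM, SD, n = 8). Its log2 fold change was 0.93 ± 0.08 (SE, adjusted p = 2.7e-08).

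Smad7, the inhibitory SMAD and itself a target of the pathway, went down. It lies on chromosome 18 (75367365 to 75395934, plus strand) and ranged from 84.8 to 111.3 CPM in CP CML (median 101.3) and from 62.3 to 88.3 CPM in BC CML (median 79.0), with an overlap between the groups. The log2 fold change was -0.37 ± 0.07 (SE, adjusted p = 0.00027). Tgif1, the nuclear repressor, on chromosome 17 (70844205 to 70853532, minus strand), ranged from 22.7 to 27.9 CPM in CP CML (median 25.9) and from 14.4 to 18.5 CPM in BC CML (median 15.6), with no overlap. The log2 fold change was -0.66 ± 0.07 (SE, adjusted p = 2.5e-07). Pmepa1 and Smad7, which are both known to be induced by TGF-β, therefore moved in opposite directions. In all, BC CML lay wholly above CP CML in 4 of the 10 genes and wholly below it in 4, against 19.3% and 17.6% of all genes tested (36.9% in both directions together).

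Levels of different genes were compared per length, as CPM per kilobase of the gene length listed with the counts. In CP CML the order ran from Tgfbr2 (81.0 ± 4.07 CPM per kilobase, SD, n = 8) through Smad4, Smurf2, Smad7, Smad3, Tgfbr1, Tgfbr3, Tgif1 and Smad2 to Pmepa1 (4.54 ± 0.48, SD, n = 8). Neighbors whose mice overlapped were Smurf2 and Smad7, Smad7 and Smad3, Tgfbr1 and Tgfbr3, Tgfbr3 and Tgif1, and Tgif1 and Smad2. In BC CML Tgfbr2 was again first (69.9 ± 3.39 CPM per kilobase, SD, n = 6), followed by Smurf2, Smad4, Smad3, Tgfbr1, Smad7, Pmepa1, Tgfbr3, Smad2 and Tgif1. The mice overlapped there between Smurf2 and Smad4, between Pmepa1 and Tgfbr3, between Tgfbr3 and Smad2, and between Smad2 and Tgif1. Smad7 stood above Tgfbr1 in CP CML and below it in BC CML, and Pmepa1 moved from last place to seventh.

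Ratios between 2 genes of the same library do not depend on how libraries are scaled, and they show the shift in balance directly. The ratio of Tgfbr1 to Tgfbr2 per kilobase was between 0.135 and 0.172 in CP CML (median 0.165) and between 0.271 and 0.344 in BC CML (median 0.321). The type II receptor transcript thus stayed the more abundant one in every mouse of both groups. The ratio of Smad3 to Smad2 was between 2.23 and 2.86 in CP CML (median 2.67) and between 5.04 and 6.23 in BC CML (median 5.76). The ratio of Smad7, the inhibitor, to Smad3 was between 0.884 and 1.26 in CP CML (median 1.08) and between 0.358 and 0.487 in BC CML (median 0.455). On the log2 scale the group means of these ratios differed by 0.99, 1.13 and -1.27, and the groups did not overlap in any of the 3. These ratios restate the changes of the single genes and were not tested.

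**Figure D2:**
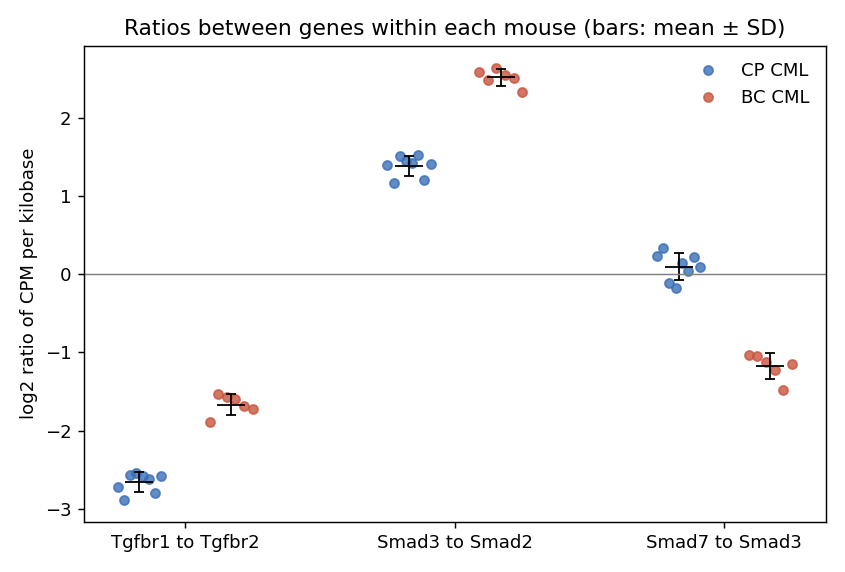
The log2 ratio of CPM per kilobase (y axis) for 3 pairs of genes within each mouse (x axis), with bars at the mean ± SD of the 8 CP CML and 6 BC CML mice. Tgfbr1 to Tgfbr2 and Smad3 to Smad2 are higher, and Smad7 to Smad3 is lower, in every BC CML mouse than in any CP CML mouse.

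The mix of cells in the sorted samples moved with the groups as well. All 8 naive T cell markers (Tcf7 the most abundant) were called lower in BC CML, and their summed level was between 4919 and 6275 CPM in CP CML and between 2702 and 3875 CPM in BC CML. Of 10 effector and memory markers, 8 were higher and 1 lower, with sums between 894.9 and 1098 CPM and between 1475 and 2196 CPM. Cd8a rose from 688.9 ± 64.3 to 1263 ± 160.0 CPM and Cd4 fell from 403.6 ± 25.2 to 243.3 ± 45.8 CPM (SD, n = 8 and 6), a pair picked from the T cell identity list after its values were seen. In bulk RNA, fewer cells of a type and less RNA per cell cannot be told apart. Of 12 myeloid markers, 11 were higher in BC CML, none was at 0 in all libraries, and the sum was between 90.2 and 495.7 CPM in CP CML and between 575.5 and 1437 CPM in BC CML (S100a9 the most abundant). All 5 NK cell markers were higher in BC CML, and their sum was between 154.3 and 216.5 CPM in CP CML and between 425.6 and 628.9 CPM in BC CML (Klrd1 the most abundant). Of 7 B cell markers 6 were higher, with overlapping sums of 38.0 to 142.2 CPM and 69.6 to 438.8 CPM. The sum of dendritic cell markers went from between 7.37 and 19.9 CPM to between 32.6 and 118.8 CPM, with 3 of 4 tested markers higher. The sum of basophil and mast cell markers went from between 5.13 and 11.6 CPM to between 19.1 and 51.3 CPM, with 2 of 4 tested markers higher. The part of these cells in the changes of the 10 genes was not tested. The sum of 8 stromal and endothelial markers overlapped between the groups, from 144.9 to 181.8 CPM in CP CML and from 132.9 to 185.5 CPM in BC CML, nearly all of it from Pecam1, which leukocytes also express.

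With the mean log2 CPM of the myeloid markers as a covariate, the same 4 genes were called higher and the same 5 lower, with log2 fold changes between 0.80 (Tgfbr1) and 1.06 (Smurf2) for the first and between -0.76 (Tgif1) and -0.29 (Tgfbr2) for the second. With the mean log2 CPM of the naive markers as a covariate, 3 genes stayed higher and none was called lower by edgeR's quasi-likelihood test, where 1 (Tgif1) was lower at an unadjusted p-value below 0.05 and no other tool was run with this covariate. Tgfbr1 (0.57, adjusted p = 0.0066), Smad3 (0.77, adjusted p = 0.0016) and Smurf2 (1.04, adjusted p = 0.018) passed the threshold in that fit. Pmepa1 (0.70, adjusted p = 0.068), Tgif1 (-0.65, adjusted p = 0.069), Smad7 (-0.33, adjusted p = 0.39), Smad2 (-0.18, adjusted p = 0.40) and Tgfbr2 (-0.09, adjusted p = 0.67) kept their direction without passing. Smad4 moved from 0.03 to 0.32 ± 0.15 (SE, adjusted p = 0.17) and did not pass either. Tgfbr3 turned to a log2 fold change of 0.47 ± 0.18 (SE, adjusted p = 0.088). The naive score had a correlation of -0.952 with the group, and the myeloid score one of 0.809. Neither fit can therefore separate the cell mix from genotype. The standard error of Tgfbr2 grew from 0.04 to 0.13 with the naive score and to 0.07 with the myeloid score. The part of T cell subsets in these changes was not tested beyond these fits.

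**Figure D3:**
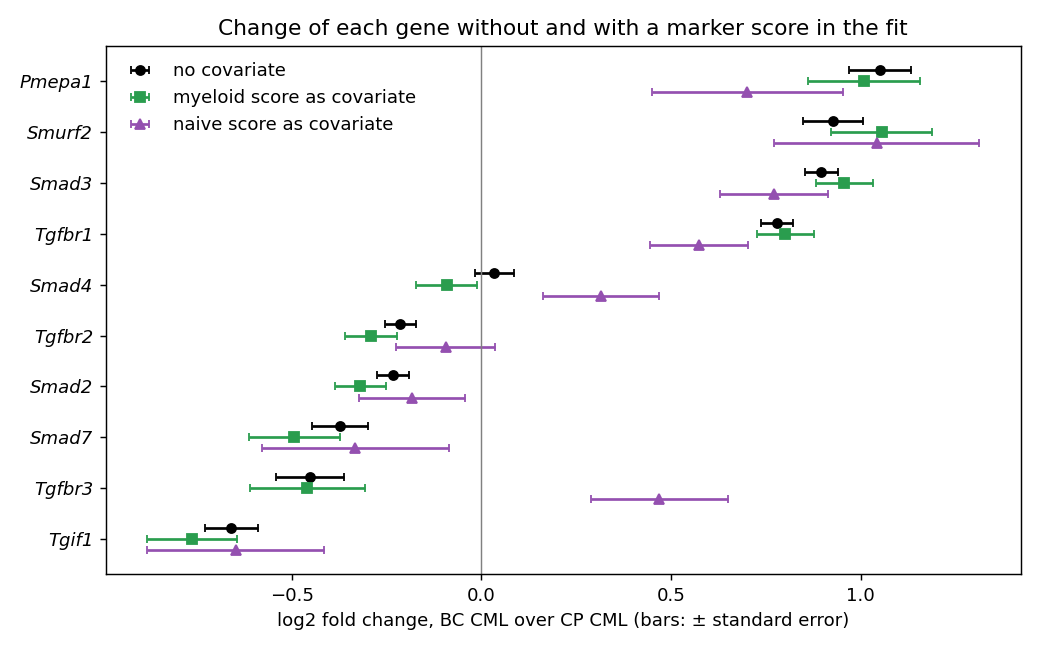
Log2 fold change of each gene in BC CML over CP CML (x axis, bars ± standard error) from edgeR's quasi-likelihood fit without a covariate, with the myeloid score and with the naive score. Tgfbr1, Smad3, Smurf2 and Pmepa1 stay to the right of 0 in all 3 fits, and Tgfbr3 moves from -0.45 to 0.47 with the naive score.

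Within a group, Tgfbr3 followed the naive score of the same library. In CP CML Pearson's r was 0.94 (exact permutation p = 0.000124, adjusted p = 0.0074 over 60 relations of the 10 genes with 3 library features) and Spearman's rho was 0.95 (exact permutation p = 0.0011, adjusted p = 0.068). Without the 2 mice farthest from the median score r was 0.91. In BC CML r was 0.79 (exact permutation p = 0.068) and rho 0.66 (exact permutation p = 0.18), and without the 2 farthest mice r was 0.71. The CP CML mice with the lowest naive scores were thus also those with the least Tgfbr3. In BC CML Tgfbr3 also followed the total reads (r = 0.95, exact permutation p = 0.026, adjusted p = 0.53), a relation that dropped to r = 0.42 without the 2 farthest mice. In CP CML Smad7 followed the myeloid score (r = 0.77, exact permutation p = 0.026, adjusted p = 0.53), but r was -0.09 without the 2 farthest mice, and in BC CML it was -0.78 (exact permutation p = 0.057). Smad3 pointed the other way against the naive score in CP CML (r = -0.67, exact permutation p = 0.066, adjusted p = 0.53, r = -0.91 without the 2 farthest mice), and no relation other than that of Tgfbr3 passed after adjustment.

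**Figure D4:**
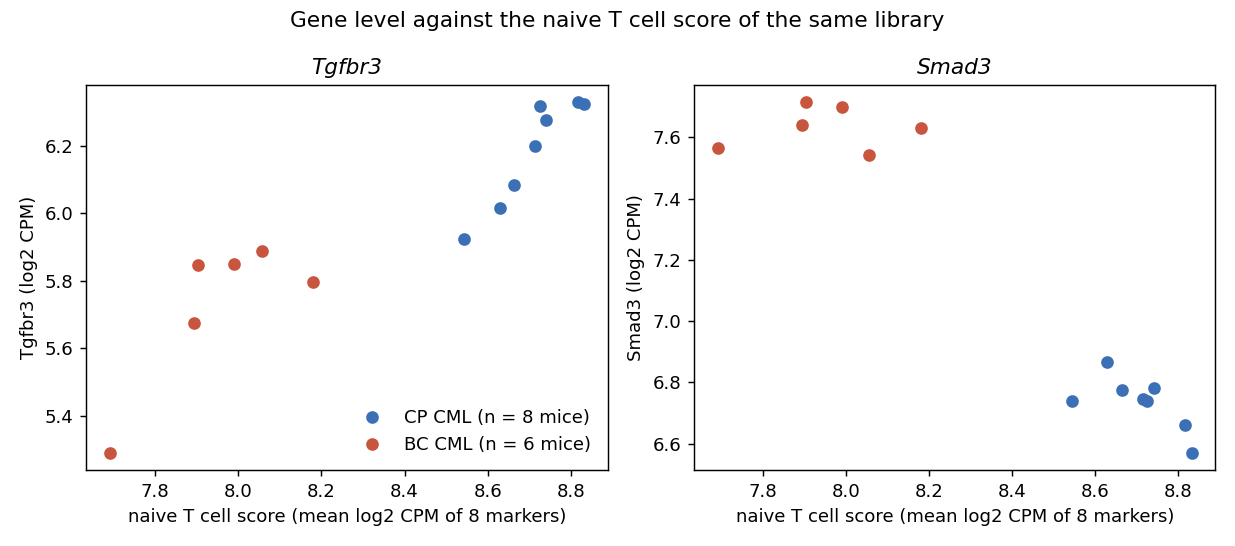
Log2 CPM of Tgfbr3 (left) and Smad3 (right) against the naive T cell score of the same library, the mean log2 CPM of 8 markers, in 8 CP CML and 6 BC CML mice. Tgfbr3 climbs with the score among CP CML mice (r = 0.94), while the Smad3 points form 1 cluster per group.

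Covariation between mice was examined for all 45 pairs of the 10 genes, in each group separately because the groups form separate clusters. No pair passed after adjustment over the 90 relations by Pearson's r or by Spearman's rho (exact permutation test over all pairings). In CP CML 9 pairs had an unadjusted exact permutation p below 0.05 by r and 5 by rho, and in BC CML 4 and 1. With 6 mice the smallest p that the permutations allow is 0.00139, so a single BC CML pair could not pass (0.125 after adjustment). The correlations were positive in 26 of 45 pairs in CP CML (median r 0.07) and in 24 of 45 in BC CML (median r 0.06), with r between -0.88 and 0.78 in CP CML and between -0.82 and 0.95 in BC CML. Both groups gave r the same sign in 27 of the 45 pairs.

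In CP CML the pair nearest to the threshold was Tgfbr2 and Smad2, with r = 0.77 (exact permutation p = 0.000744, adjusted p = 0.067), rho = 0.83 (exact permutation p = 0.015) and r = 0.59 without the 2 farthest mice. Without CP CML replicate 4 this pair passed (r = 0.82, exact permutation p = 0.000397, adjusted p = 0.036). Tgfbr1 and Smad3 went up and down together (r = 0.78, rho = 0.86, r = 0.61 without the 2 farthest mice), and Smad3 and Smad4 went opposite ways (r = -0.87, rho = -0.88, r = -0.97 without the 2 farthest mice), with adjusted p = 0.24 and 0.21 from the exact permutation test of r. In BC CML Tgfbr1 and Smad3 had the opposite sign (r = -0.64, exact permutation p = 0.15). In CP CML the pair Tgfbr1 and Smad4 had r = -0.88 and rho = -0.60, but r = 0.01 without the 2 mice farthest in Tgfbr1. Without the same 2 mice the r of Tgfbr1 with Smad2 went from -0.79 to 0.52 and that of Tgfbr1 with Tgfbr2 from -0.76 to -0.21. Without the 2 mice farthest in Tgfbr2, again replicates 2 and 7, the r of Tgfbr2 with Smad4 went from 0.75 to 0.21 and that of Tgfbr2 with Smad3 from -0.56 to 0.11. These relations rested on CP CML replicates 2 and 7, which had the lowest Tgfbr1 (70.7 and 73.8 CPM) and the highest Smad4 (168.9 CPM in both). The same 2 libraries had the highest naive scores of CP CML (8.82 and 8.83). The part of the cell mix in these relations was not tested.

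In BC CML the strongest pair was Tgfbr2 and Pmepa1, with r = 0.95 (exact permutation p = 0.014, adjusted p = 0.24), rho = 0.94 and r = 0.90 without the 2 farthest mice. In CP CML the r of this pair was 0.11 (exact permutation p = 0.79), and the pair passed the threshold in neither group. Smad3 and Smurf2 had r = 0.90 (exact permutation p = 0.021, adjusted p = 0.24) and rho = 0.83, with r = 0.70 without the 2 farthest mice, and in CP CML r = -0.34. Smad4 and Tgif1 had r = 0.75 (exact permutation p = 0.024, adjusted p = 0.24), rho = 0.77 and r = 0.78 without the 2 farthest mice, and in CP CML r = -0.07. Smad3 and Smad4 were again opposed (r = -0.73, exact permutation p = 0.044, adjusted p = 0.31, rho = -0.77), with r = -0.47 without the 2 farthest mice. Differences in r between the groups were not tested.

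**Figure D5:**
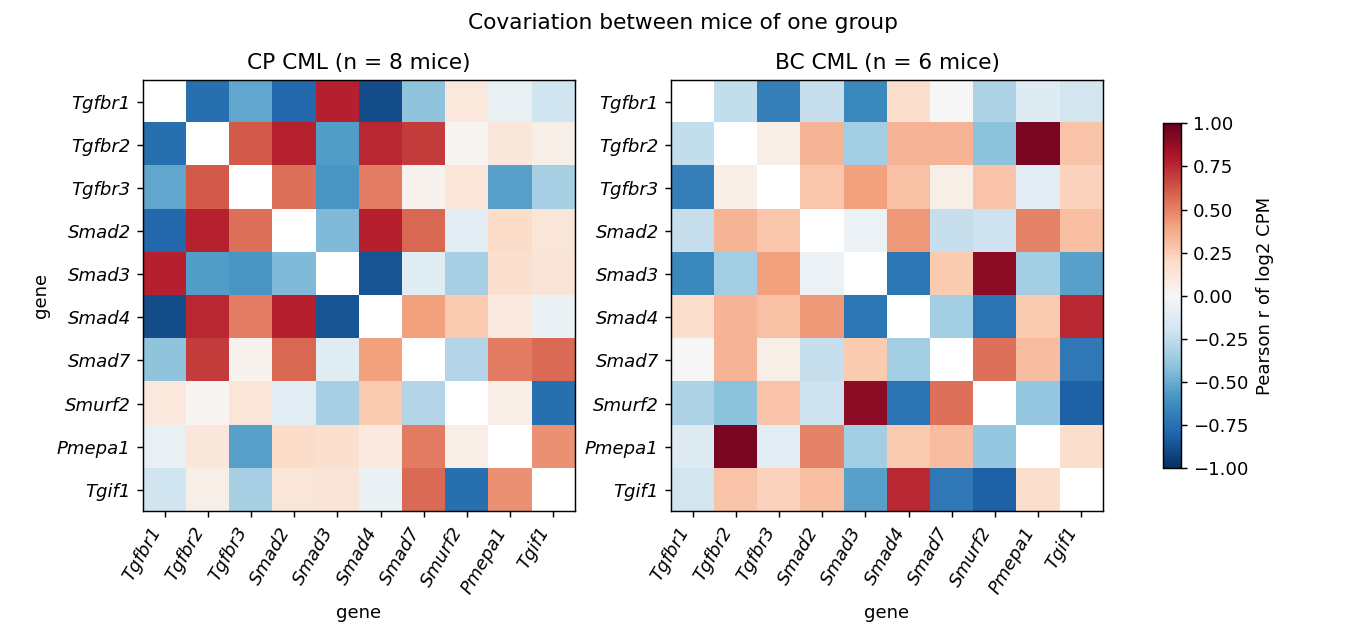
Pearson's r of log2 CPM between each pair of genes (color, from -1 to 1) over the 8 CP CML mice (left) and the 6 BC CML mice (right). In CP CML Tgfbr2, Smad2 and Smad4 have positive values with each other and negative ones with Tgfbr1 and Smad3, but several of these values change by much or turn in sign without replicates 2 and 7, and in BC CML the highest cells are Tgfbr2 with Pmepa1 (0.95) and Smad3 with Smurf2 (0.90).

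The rest of the pathway was described from 7 lists of 88 genes in all, of which 78 were tested. Calls went up for 28 and down for 23 of them in BC CML, a share of calls near the 65.2% over all genes tested (32.6% higher and 32.7% lower), so the counts are no result about the pathway. The median log2 fold change of the tested genes was 0.06 against -0.01 over all genes. Among 14 genes for ligands and their activation, 10 were tested, 6 were higher and 2 lower. Tgfb1, the main ligand gene of T cells, had 107.3 ± 12.6 CPM in CP CML and 114.5 ± 11.8 CPM in BC CML (SD, n = 8 and 6), a log2 fold change of 0.09 ± 0.08 (SE, adjusted p = 0.31). Tgfb3, at a much lower count, rose from 3.58 ± 0.64 to 12.3 ± 1.62 CPM with no overlap, a log2 fold change of 1.78 ± 0.12 (SE, adjusted p = 5.1e-10). Tgfb2 had at most 10 reads in a library and was not tested.

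Genes that hold or release latent TGF-β moved in both directions. Itgav, the integrin chain that takes part in freeing TGF-β from its latent form, rose by 1.19 on the log2 scale (standard error 0.06, adjusted p = 1.4e-11). Itgb8, the chain that pairs with Itgav for this, fell from 4.88 ± 1.00 to 1.34 ± 0.53 CPM (log2 fold change -1.86, adjusted p = 7.3e-07). Thbs1, a secreted activator of latent TGF-β, rose from 0.63 ± 0.33 to 6.59 ± 3.89 CPM (3.39, adjusted p = 1.2e-06). Both were named after their values were seen. Lrrc32, which encodes GARP, the protein that holds latent TGF-β on regulatory T cells, fell from 23.6 ± 2.92 to 5.39 ± 1.29 CPM, a log2 fold change of -2.12 ± 0.13 (SE, adjusted p = 3.7e-10). Foxp3, the master regulator of regulatory T cells, fell from 94.2 ± 8.14 to 28.5 ± 4.32 CPM, a log2 fold change of -1.73 ± 0.08 (SE, adjusted p = 1.4e-11). The summed level of 6 regulatory T cell markers overlapped between the groups, at 497.0 to 566.4 CPM in CP CML and 465.1 to 634.5 CPM in BC CML, with 2 markers higher and 2 lower.

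Of 11 genes for receptor partners, 9 were tested, 4 were higher and 2 lower. Fkbp1a, whose protein holds TGFBR1 inactive, rose by 0.40 on the log2 scale (adjusted p = 4.0e-06), and Zfyve16, an endosomal SMAD adaptor, by 0.25 (adjusted p = 0.00071). Ppp1r15a, which directs a phosphatase, had a log2 fold change of -0.79 (adjusted p = 0.00041) with overlapping mice. Of the 4 other SMADs, which mostly serve bone morphogenetic protein receptors, Smad5 rose from 97.6 ± 6.26 to 153.7 ± 7.40 CPM (log2 fold change 0.65, adjusted p = 7.7e-10) and Smad1 fell from 22.9 ± 1.96 to 17.2 ± 2.05 CPM (-0.41, adjusted p = 0.00015). Smad6 and Smad9 had at most 3 reads in a library.

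Of 13 ubiquitin ligases and deubiquitinases, 4 were higher and 3 lower, and their median log2 fold change was -0.01. Wwp1, a ligase of the same family as Smurf2, rose by 0.50 (adjusted p = 6.7e-07) and Itch by 0.16 (adjusted p = 0.0016) on the log2 scale, and Usp11, a deubiquitinase, had -0.61 (adjusted p = 5.3e-07). Smurf1, the nearest relative of Smurf2, had a log2 fold change of -0.16 (adjusted p = 0.021) and was named after its value was seen. Of 14 genes for nuclear cofactors and repressors, 13 were tested, 2 were higher and 5 lower. Ski, a SMAD co-repressor, fell from 176.7 ± 7.81 to 134.8 ± 10.1 CPM (log2 fold change -0.39, adjusted p = 8.4e-07), in the same direction as the repressor Tgif1. Their relatives did not follow: Skil, another SMAD co-repressor, was called higher (0.18, adjusted p = 0.0028), and Tgif2 had a log2 fold change of 0.22 (adjusted p = 0.077), both named after their values were seen. The transcription factor Sp1 (-0.39, adjusted p = 5.0e-07) and the SMAD partner E2f4 (-0.42, adjusted p = 8.7e-06) were lower too. Of 13 genes of the branch that does not use SMADs, none was higher and 6 were lower, by small amounts, where 65.2% of all genes tested were called and 32.7% were lower. The largest of these was Traf6, an adaptor ligase, with a log2 fold change of -0.31 (adjusted p = 7.8e-07), followed by Ppp2r1a (-0.22, adjusted p = 0.00027) and Mapk14 (-0.20, adjusted p = 0.0013).

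Of 19 genes that TGF-β is known to induce or repress in T cells or elsewhere, 18 were tested, 11 were higher and 4 lower. Their median log2 fold change was 0.73, where 32.6% of all genes tested were higher and 32.7% lower. This list too was chosen with earlier results of these data known. Genes that the pathway usually restrains were among those that rose. Id2, an inhibitor of E proteins, rose from 139.1 ± 10.6 to 353.0 ± 27.5 CPM (log2 fold change 1.34, adjusted p = 1.0e-12), and Eomes, an effector transcription factor, from 77.6 ± 14.2 to 256.7 ± 25.4 CPM (1.73, adjusted p = 1.5e-09). Gzmb, the granzyme B gene of cytotoxic cells, rose from 48.8 ± 11.7 to 268.0 ± 79.4 CPM (2.46, adjusted p = 4.5e-07). Itgae, the CD103 integrin chain that TGF-β induces, rose from 93.3 ± 9.54 to 119.5 ± 15.3 CPM (0.36, adjusted p = 0.0010) with overlapping mice. Gzmb and Itgae were named after their values were seen. These genes moved beside the effector, myeloid and NK cell marker sums given above. Gzmb, Ifng, Prf1, Klrg1 and Tbx21 are in this list and also among the effector and memory markers, so the 2 are not separate observations. The part of NK cells, which also express Id2, Eomes and Gzmb, was not tested. With the myeloid score as a covariate, 17 of the 88 pathway genes were called higher in place of 28, and with the naive score 8 were higher and 6 lower.

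The genes whose levels varied most like Tgfbr1 between mice, by Pearson's r of the deviations from the group means over 14 mice, were Sept11 (r = 0.90), Iqsec1 (0.87) and Myo1f (0.84). For Tgfbr2 they were Tmem64 (0.88), 1110034G24Rik (0.87) and Mxi1 (0.87). They were the highest of 9151 genes compared with each receptor, so their r is a description of likeness only. None of the 3 genes for one receptor was among the 3 for the other.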

How the data were processed

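The authors trimmed the reads with Trimmomatic and FASTP, aligned them to mm10 with STAR 2.6.0, counted them per gene with HTSeq 0.11.1, and deposited raw counts with each gene's position and length. The annotation and strand setting of the counting are not given in the sources used here. Of the 10 genes only Smurf2 overlaps another listed gene (Mir5098, at most 11 reads per library). Mice were separate animals.

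Counts were filtered by filterByExpr (12248 of 24091 genes), scaled by TMM and tested with edgeR 4.0.16 (glmQLFit with robust estimation, glmQLFTest, no covariate, Benjamini-Hochberg adjustment) in R 4.3.3. Standard errors are the size of the log2 fold change over the square root of F. Log2 CPM used a prior count of 2. On simulated counts for 12182 genes, the test recovered 183 of 200 genes changed by 1 on the log2 scale, with 7 other calls. Far fewer genes were changed there than the 65.2% called in the data. The simulation therefore does not show how the test behaves when most genes differ. No library repeated another, since the chi-square per degree of freedom between mice of a group was at least 2.99. Depth was 15703702 to 19914531 reads per library, and at least 241 reads supported each value of the 10 genes. Replicate numbers from the titles do not mark shared animals.

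The genes and lists were chosen with earlier results of these data known. From each pathway list, the 3 called genes with the lowest p and an average log2 CPM of at least 2 were named, with the ligand genes. Alternatives comprised DESeq2 1.42.0, a likelihood ratio test, scaling by RLE, upper quartile or library size alone, other filters, the replicate number as a block, 2 marker scores as covariates, and each mouse left out.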

Additional observations from a re-analysis of the deposited data

Results flagged for a closer look

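In 3 cases a value stood apart from its group, with a gap to the nearest other mouse that was large against the range of the group. These came from 32 groups of values examined (the 10 genes, 3 ratios, total reads and 2 marker scores in each group of mice), where chance gives about 1.6. Smad2 in CP CML replicate 2 was 81.3 CPM against 74.1 CPM in the next mouse. Smad4 in BC CML replicate 6 was 175.8 CPM against 154.4 CPM in the next mouse, and without that mouse the small positive difference of Smad4 became -0.0047 on the log2 scale. The total of BC CML replicate 2 was 16145537 reads against 18319039 reads in the next library. This library also had the lowest Tgfbr3 of its group.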

How the results depend on the processing

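Tgfbr1, Smad3 and Smurf2 were higher past the threshold in all 10 alternative fits and in all 14 fits that each left out one mouse. Pmepa1, Tgfbr2, Tgfbr3, Smad2, Smad7 and Tgif1 kept their calls in the same fits, except with the naive score as a covariate. In that fit none of the 10 genes was called lower (0 in place of 5 with edgeR's quasi-likelihood test, and 1 at an unadjusted p-value below 0.05), Tgfbr3 had a log2 fold change of 0.47, the count of all genes called was 1919 in place of 7986, and the 88 pathway genes had 8 higher and 6 lower calls in place of 28 and 23. With the myeloid score 5005 genes were called, 17 pathway genes were higher and 16 lower, and Smad4 had a log2 fold change of -0.0914, against 0.32 with the naive score and 0.03 with neither. Smad4 was not called in any fit, and its log2 fold change was between -0.0047 (without BC CML replicate 6) and 0.0573 with one mouse left out. For these shifts the cause was not tested. No pair of genes covaried past the threshold under the other scaling, the other prior count or Spearman's rho, and between 0 and 1 pairs did with one mouse left out (Tgfbr2 and Smad2 without CP CML replicate 4). Mice with equal replicate numbers were not paired (mean correlation of deviations -0.024 over 6 pairs, from -0.273 to 0.356). With the replicate block, 7318 genes were called, and the 4 higher and 5 lower calls stood. Without the filter on low counts 30 pathway genes were higher and 23 lower. Low counts limit the pathway genes left untested, of which Zfyve9, named after its values were seen, had 1 to 5 reads in CP CML and 7 to 15 in BC CML.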
